A study of Mus musculus with 10 samples.

Results

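The genes described here are the matrix metalloproteinases (MMPs), the ADAMTS proteases with their ADAMTS-like relatives, and the tissue inhibitors of metalloproteinases (TIMPs), as transcribed in the inguinal (subcutaneous) white fat of old mice. They were taken by name from the protein-coding genes of the deposited table, with Mmp12 left out, which gave 47 of 31285 genes: 19 MMPs, 19 ADAMTS, 5 ADAMTS-like genes and 4 TIMPs. The tissue came from 20-month-old mice of 2 genotypes kept on regular chow, with 5 libraries each. One genotype is labelled Flox. The other is labelled GHR Knockdown, and Ad-GHRKO, the series' own name for these mice, is used for it: the growth hormone receptor gene, Ghr, was removed in fat. The Cre driver behind that loss is not given in the sources used here. Whether the 10 libraries come from 10 animals is not said in the labels, so a p-value speaks only of the spread among these libraries.

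MMPs are zinc-dependent endopeptidases, made as inactive proenzymes, that cut collagens, gelatins and other matrix proteins outside the cell. ADAMTS proteases carry thrombospondin repeats that hold them in the matrix, where some cut proteoglycans such as versican and others trim procollagens, while the ADAMTS-like proteins share the repeats and lack the protease domain. TIMPs occupy the active site of these enzymes, and in fat the balance between protease and inhibitor accompanies the rebuilding of matrix around growing or shrinking adipocytes.

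Levels are in FPKM, fragments scaled to gene length and to the library total, so they may be compared between genes. Recovered depth was 14.6 to 19.3 M reads per library (M, mega). Ghr, the targeted receptor, averaged 93.5 ± 21.9 FPKM over the Flox libraries against 16.6 ± 2.71 FPKM over the Ad-GHRKO libraries (mean ± SD, n = 5 each, as throughout), and the groups did not overlap. The adipocyte markers summed to 5328 to 8810 FPKM in Flox and 2836 to 8389 FPKM in Ad-GHRKO. In 3 libraries 10 skeletal muscle markers took a large part of the reads: 13.7% in Ad-GHRKO 1, 7.66% in Flox 5 and 5.41% in Flox 3, against 0.171% in Ad-GHRKO 5 and at most 0.011% elsewhere. FPKM is relative to the library total, so these transcripts dilute the others of a library, though not every other value was low there. Ad-GHRKO 1 was the lowest Ad-GHRKO library for 23 of the 28 members tested and the highest for 1, Mmp15. The lowest Flox library was Flox 5 for 9 of them, Flox 1 for 8, Flox 2 for 7, Flox 3 for 4 and Flox 4 for 0. The matching shares over all genes were not computed, and the part of muscle in these counts was not tested. Fewer cells of a type and less RNA per cell cannot be told apart in such bulk tissue.

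Several stromelysin and collagenase genes are textbook targets of the AP-1 factors FOS and JUN. The 6 members Mmp13, Mmp3, Mmp10, Mmp8, Mmp27 and Mmp7 lie in this order on chromosome 9, between 7272514 and 7699585 (GRCm38), a stretch of 0.427 Mb. Genes outside the members were not looked up in this stretch, so these 6 need not be directly adjacent. RefSeq promoters (GRCm38.p6, 250 bases before to 50 after a start site) were matched for 32 of the 47 members. The AP-1 motif TGANTCA, which reads the same on both strands, was found in 4 of the 32, Mmp13, Mmp3, Mmp10 and Mmp7, all in this cluster, and in 7.81% of all 32851 promoters. The 100 bases before the start site are shown for these 4, all on the plus strand, because they are the matched members that hold the motif. Capitals mark the motif, whose most upstream base lies 35 (Mmp13), 46 (Mmp3), 63 (Mmp10) and 63 (Mmp7) bases before the start site.
Mmp13, chr9:7272414-7272513: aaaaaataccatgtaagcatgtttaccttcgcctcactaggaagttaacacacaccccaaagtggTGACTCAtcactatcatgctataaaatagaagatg
Mmp3, chr9:7445722-7445821: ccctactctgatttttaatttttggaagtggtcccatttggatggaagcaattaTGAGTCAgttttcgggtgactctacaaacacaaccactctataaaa
Mmp10, chr9:7502242-7502341: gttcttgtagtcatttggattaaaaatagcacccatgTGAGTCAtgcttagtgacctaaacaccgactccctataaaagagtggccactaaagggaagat
Mmp7, chr9:7691990-7692089: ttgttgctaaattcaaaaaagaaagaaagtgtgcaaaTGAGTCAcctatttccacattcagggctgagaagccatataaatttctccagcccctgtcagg
A motif of the kind bound by STAT5, the factor downstream of the growth hormone receptor (TTCNNNGAA, also the same on both strands), was found in 1 of the 32, Mmp23, and in 8.3% of all promoters. Members were counted by gene, with the motif in any of its promoters, and the percentages count single promoters, so these shares are not like for like. A match is a stretch of letters and not a measured site.

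Of these 4 genes only Mmp3, stromelysin 1, which cuts proteoglycans and activates other MMPs, was abundant. It held 39.0, 37.0, 29.7, 57.8 and 38.4 FPKM in Flox 1 to 5 and 24.8, 26.0, 32.0, 46.9 and 57.3 FPKM in Ad-GHRKO 1 to 5. The groups overlapped throughout, with the highest values in Flox 4 and Ad-GHRKO 5, and the log2 change was -0.15 (SE 0.25, limma adjusted p = 0.820). Mmp13, a collagenase, had 0 to 13 recovered reads per library, Mmp10 had 3 reads in Ad-GHRKO 5 and none elsewhere, and Mmp7 had 1 read in all. At this depth no difference was detectable for Mmp13, Mmp10 or Mmp7. Of the AP-1 genes, Fos rose from 13.6 ± 3.90 to 96.1 ± 52.4 FPKM (log2 change 2.58, limma adjusted p = 0.00436). Junb rose from 11.8 ± 5.31 to 55.1 ± 23.4 FPKM (log2 change 2.11, limma adjusted p = 0.0140). Without the 3 muscle-rich libraries the log2 change of Junb was 1.69 and the call ended (adjusted p = 0.0525).

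The family's transcripts were dominated by a few genes. Timp2 was the most abundant member, averaging 191 ± 113 FPKM (Flox) and 204 ± 52.5 FPKM (Ad-GHRKO), followed by Mmp2, Timp4, Mmp3, Timp3, Adamts5 and Mmp14. Mmp2 made up 35.9% to 48.1% of the summed MMP level of a library, Mmp3 10.5% to 22.7% and Mmp14 7.74% to 13.2%. The ranges of neighbours in this order overlapped across libraries in nearly every case, as the plot of levels by library shows. Within each library Timp2 still exceeded Mmp2, by a ratio of 1.58 to 2.47.

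**Figure D1:**
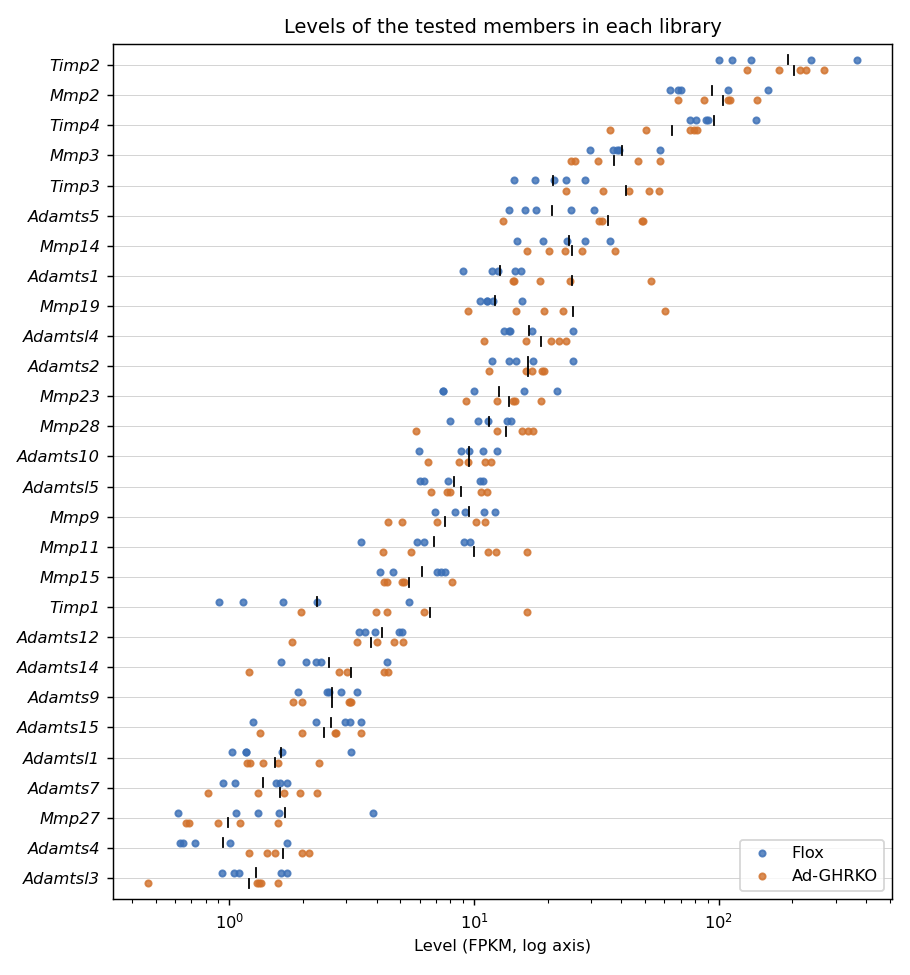
Level of each of the 28 tested members in FPKM on a log axis, 1 point per library, Flox in blue above Ad-GHRKO in orange, with the group mean as a black bar (n = 5 each). Timp2 lies at the top with 100 to 367 FPKM, and the groups overlap for each of the 28 members.

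Of the 47 members, 28 reached 1 FPKM in at least 5 libraries and were tested, and 19 did not. None of the 28 passed an adjusted p of 0.05 (limma with trend on log2(FPKM + 1), adjusted over all 12785 genes tested), where 2.19% of all genes passed, 99 higher (0.774%) and 181 lower (1.42%), or 162 and 100 after rescaling to TPM (transcript shares of a library). An unadjusted p under 0.05 was reached by 5 of the 28 (17.9%), against 16.4% of all genes: Timp3, Adamts4, Adamts1 and Timp1 with positive changes and Timp4 with a negative one. Limma voom on recovered reads also passed 0 of the members, and 2.13% of all genes. The groups overlapped for each of the 28, where 4.97% of all genes had groups that did not. The median log2 change was 0.11 over the members and 0.04 over all genes, with 18 positive and 10 negative, and TPM rescaling moved the all-gene median by 0.11. The count of 0 depends on leaving out Mmp12, the macrophage elastase, which rose from 0.105 ± 0.0532 to 8.67 ± 8.68 FPKM (limma adjusted p = 0.00747). Mmp12 met the filter only through the Ad-GHRKO libraries, so it had to differ if tested, and it was not tested in any fit that left out an Ad-GHRKO library.

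**Figure D2:**
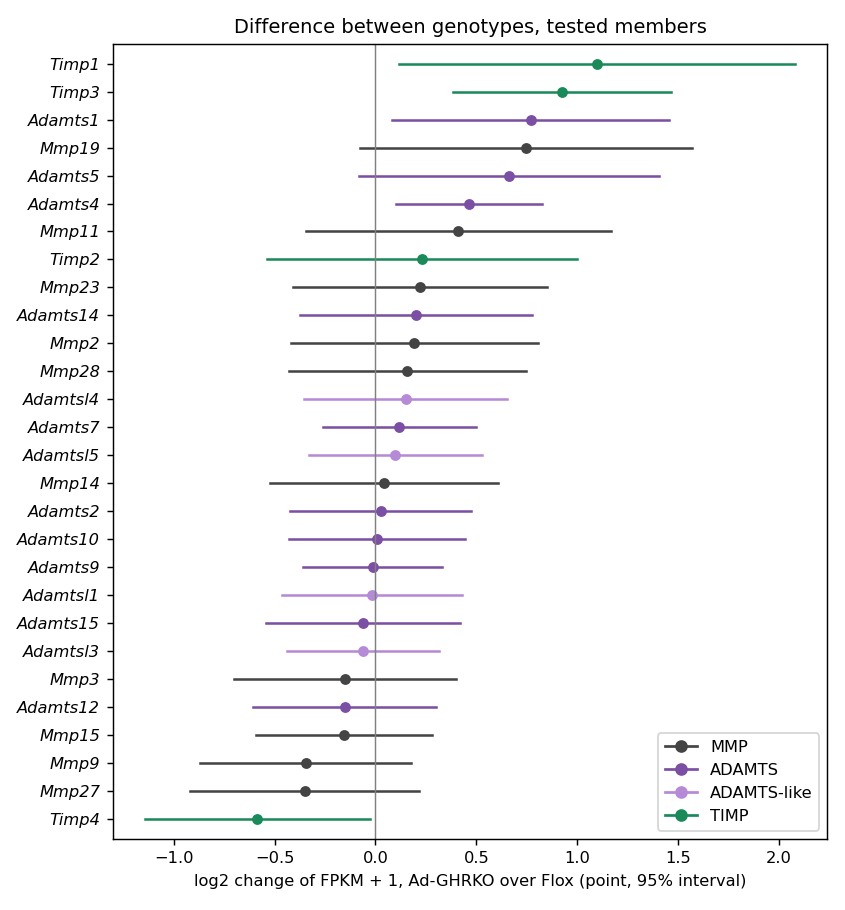
Log2 change of FPKM + 1 between Ad-GHRKO and Flox for the 28 tested members (limma estimate as a point, 95% interval as a line), coloured by family and sorted. The 4 TIMPs take both ends of the range, from -0.59 for Timp4 to 1.10 for Timp1, and 18 of the 28 lie within 0.25 of 0.

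The 4 inhibitors differed most among themselves. Timp3 is the TIMP that binds to the matrix and also blocks ADAMTS aggrecanases and the sheddase ADAM17 (chromosome 10, 86300372 to 86349506, plus strand). It held 21.1, 14.6, 28.3, 23.7 and 17.7 FPKM in Flox 1 to 5 and 23.7, 33.6, 56.8, 51.9 and 43.0 FPKM in Ad-GHRKO 1 to 5. The only Ad-GHRKO library within the Flox range was Ad-GHRKO 1, the library richest in muscle reads. The means were 21.1 ± 5.32 and 41.8 ± 13.4 FPKM (log2 change 0.92, SE 0.25, 95% interval 0.38 to 1.47, adjusted p = 0.0846). Without Ad-GHRKO 1 the log2 change was 1.11 and it passed (adjusted p = 0.0132, where 9.32% of all genes passed), as it did without the 3 muscle-rich libraries (1.19, 0.0295, 6.18% of all genes) or without those and Ad-GHRKO 5 (1.21, 0.0468, 5.23%). It also passed with median ratio scaling (0.0325, 4.4% of all genes), quantile normalization (0.0489, 4.42%) and array weights (0.00816, 13.3%), so in 6 of 23 alternatives in all. Leaving out any other single library gave adjusted p up to 0.203. Timp3 did not pass with a skeletal muscle score as covariate (adjusted p = 0.054), TPM rescaling (0.0739), voom (0.0851) or no filter (0.184).

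Timp4, the TIMP most typical of heart and fat (chromosome 6, 115241892 to 115252205, minus strand), held 76.6, 142, 90.2, 88.8 and 80.5 FPKM in Flox 1 to 5 and 35.9, 76.0, 79.2, 81.8 and 50.5 FPKM in Ad-GHRKO 1 to 5. Flox 2 stood above all others and Ad-GHRKO 1 and 5 below, while the other 7 libraries lay between 76.0 and 90.2 FPKM. The log2 change was -0.59 (SE 0.25, 95% interval -1.14 to -0.03, adjusted p = 0.280), and it passed in none of 23 alternatives.

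Timp1, a secreted TIMP that inflammation and injury induce in many tissues (X chromosome, 20870166 to 20874735, plus strand), was the least abundant TIMP. It held 2.27, 1.14, 0.906, 5.43 and 1.66 FPKM in Flox 1 to 5 and 1.97, 3.99, 4.41, 6.25 and 16.5 FPKM in Ad-GHRKO 1 to 5, which rest on 15 to 214 reads per library. Flox 1 and Flox 4 lay within the Ad-GHRKO range, and Ad-GHRKO 5 held 16.5 FPKM where no other library passed 6.25. The log2 change of Timp1 was 1.10 (SE 0.45, adjusted p = 0.252), and 0.73 (0.448) without Ad-GHRKO 5.

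Timp2, which both inhibits MMPs and helps MMP14 to activate pro-MMP2 (chromosome 11, 118301069 to 118355740, minus strand), spanned 100 to 367 FPKM in Flox and 130 to 269 FPKM in Ad-GHRKO. The Ad-GHRKO values lay within the Flox range, and the log2 change was 0.23 (95% interval -0.54 to 0.998, adjusted p = 0.801). Timp1, Timp3 and Timp4 each lie inside a synapsin gene on the opposite strand, Syn1, Syn3 and Syn2. The exons of Timp3 and Timp4 overlap exons of the host, and no source used here says whether counting heeded strand, so their values are uncertain to that extent. Some other members, Mmp19, Mmp11 and Adamts4 among them, overlap exons on the opposite strand too and share this limit.

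Within a library, a ratio of genes is free of dilution by other transcripts. Timp3 made up 4.89% to 11.1% of the summed TIMP level in Flox and 11.6% to 14.6% in Ad-GHRKO, and the groups did not overlap. The ratio of Timp3 to Timp4 was 0.276, 0.103, 0.314, 0.267 and 0.220 in Flox 1 to 5 and 0.661, 0.442, 0.717, 0.634 and 0.850 in Ad-GHRKO 1 to 5. Every Ad-GHRKO library, Ad-GHRKO 1 included, lay above every Flox library (0.236 ± 0.0817 against 0.661 ± 0.148). This share and this ratio were chosen after their values were seen and were not tested. The ratio sets a TIMP with a positive change against the 1 TIMP with a negative change, which favours groups apart. How often other shares or ratios keep the groups apart was not computed, where 4.97% of all single genes did. The part of muscle or other cells in them was not tested.

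**Figure D3:**
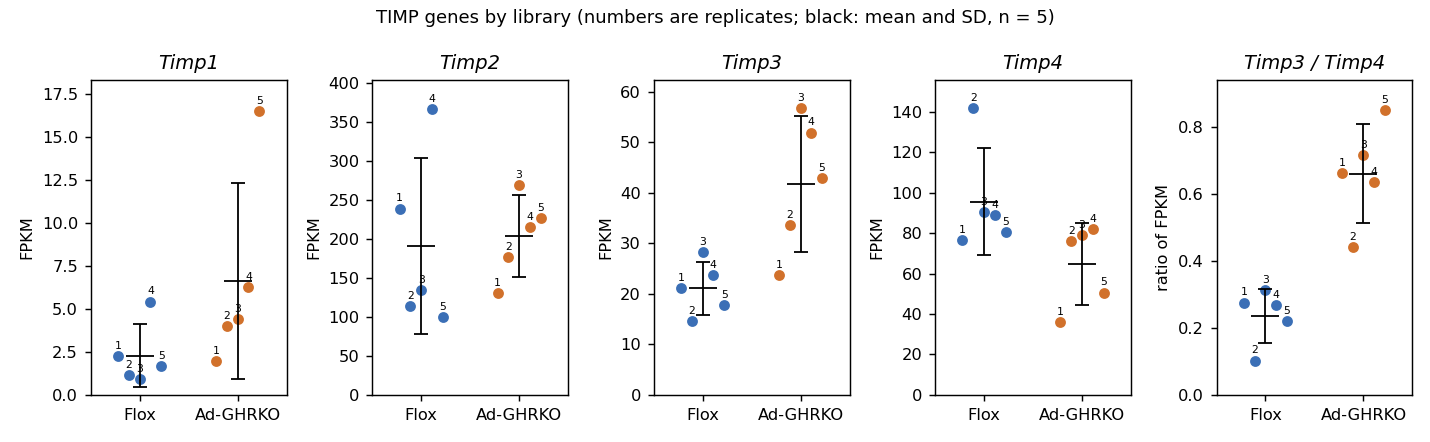
Level of the 4 TIMP genes in FPKM and the ratio of Timp3 to Timp4, by genotype, 1 numbered point per library with the mean and SD in black (n = 5 each, axes from 0). The groups overlap in the 4 panels of levels, and in the ratio all Ad-GHRKO libraries (0.442 to 0.850) lie above all Flox libraries (0.103 to 0.314). The ratio was chosen after its values were seen.

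Summed over each family, the TIMP and MMP levels of the genotypes differed by less than the spread between libraries. TIMPs summed to 310 ± 110 FPKM (Flox) and 317 ± 81.7 FPKM (Ad-GHRKO), and MMPs to 220 ± 67.6 and 244 ± 63.0 FPKM. The ratio of summed TIMP to summed MMP was 1.396 ± 0.126 in Flox (1.18 to 1.51) and 1.31 ± 0.179 in Ad-GHRKO (1.11 to 1.59), a difference smaller than the spread between libraries. ADAMTS genes summed to 75.0 ± 14.1 FPKM (Flox) and 103 ± 32.4 FPKM (Ad-GHRKO), from 55.0 in Ad-GHRKO 1 to 146 in Ad-GHRKO 5, and the groups overlapped.

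Mmp2 (gelatinase A, chromosome 8, 92827291 to 92853420, plus strand) and Mmp14 (the membrane-type protease that activates it, chromosome 14, 54431612 to 54445364, plus strand) varied widely between libraries and little between genotypes. Mmp2 held 109, 67.9, 70.1, 159 and 63.3 FPKM in Flox 1 to 5 and 68.2, 111, 143, 87.2 and 109 FPKM in Ad-GHRKO 1 to 5. Mmp14 held 28.4, 19.2, 23.9, 36.0 and 14.9 FPKM in Flox 1 to 5 and 16.4, 27.6, 37.7, 20.3 and 23.4 FPKM in Ad-GHRKO 1 to 5. The same libraries were high for each gene, Flox 4 and Ad-GHRKO 3, and the genotypes overlapped throughout. Mmp2 had a log2 change of 0.19 (95% interval -0.42 to 0.81, adjusted p = 0.789). Mmp14 had a log2 change of 0.04 (-0.52 to 0.61, adjusted p = 0.959), whose sign changed with the library left out. These intervals leave room for changes of either sign.

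Mmp2, Mmp14 and Timp2, whose proteins form the complex that activates pro-MMP2 at the cell surface, rose and fell together across the 10 libraries on the log2(FPKM + 1) scale. For Mmp2 and Timp2 Pearson's r was 0.94 (permutation p = 0.00022, 0.00066 after adjustment over the 3 pairs) and Spearman's rho was 0.93 (permutation p = 0.00034, adjusted 0.00066). For Mmp2 and Mmp14 r was 0.92 (permutation p = 0.00052, adjusted 0.00078) and rho 0.93 (0.00044, adjusted 0.00066), and for Mmp14 and Timp2 r was 0.85 (permutation p = 0.00286 before and after adjustment) and rho 0.88 (0.0016 before and after). Without the 2 libraries farthest from the median r was 0.90, 0.87 and 0.78 in that order, and over the 7 libraries left without the muscle-rich ones it was 0.90, 0.94 and 0.77. Each genotype alone has too few libraries for a correlation. With the genotype means removed r was 0.94, 0.93 and 0.85.

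The relation is not particular to the 3 genes. Among all tested genes Timp2 ranked 12 and Mmp14 ranked 36 by their correlation with Mmp2. The fibroblast and progenitor markers, among them Pdgfra, Col1a1 and Dcn, summed to 452 to 1254 FPKM in Flox, highest in Flox 4, and to 451 to 879 FPKM in Ad-GHRKO, highest in Ad-GHRKO 3, the libraries where Mmp2 was highest too. The mean of Pdgfra, Col1a1 and Dcn correlated with Mmp2 at r = 0.89. The part of fibroblast content in the relation was not tested.

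**Figure D4:**
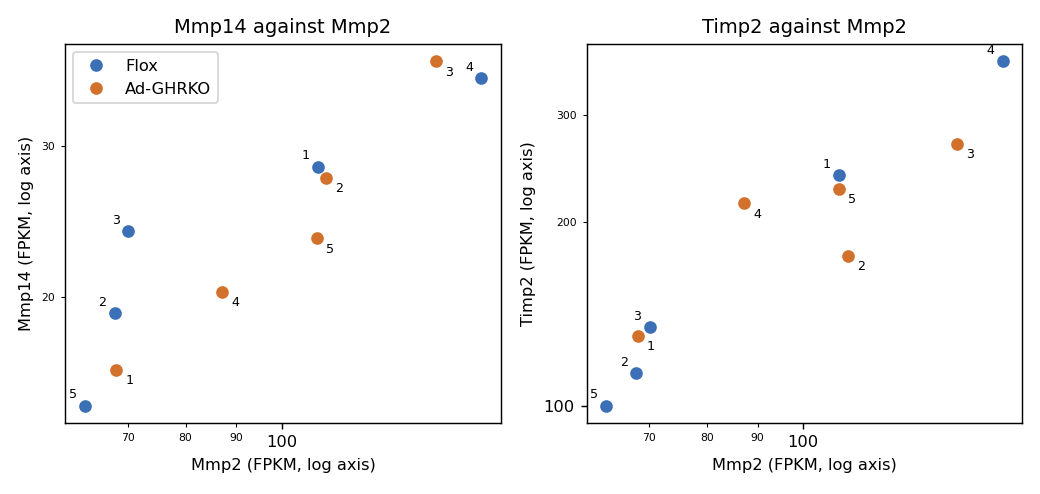
Mmp14 (left) and Timp2 (right) against Mmp2 in the 10 libraries, in FPKM on log axes, Flox in blue and Ad-GHRKO in orange, numbered by replicate. Libraries high in Mmp2, such as Flox 4 (159 FPKM) and Ad-GHRKO 3 (143 FPKM), are high in Mmp14 and Timp2 as well, and the genotypes overlap.

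Among the other MMPs, Mmp19, found in stroma and macrophages, held 11.3, 11.3, 10.6, 15.8 and 11.9 FPKM in Flox 1 to 5 and 9.45, 14.9, 23.1, 19.4 and 60.5 FPKM in Ad-GHRKO 1 to 5. Ad-GHRKO 5 was far above the rest and Ad-GHRKO 1 below every Flox library, and the log2 change of Mmp19 was 0.75 (SE 0.38, adjusted p = 0.364), or 0.37 (0.582) without Ad-GHRKO 5. Mmp9, gelatinase B, which neutrophils and macrophages carry, averaged 9.53 ± 2.08 FPKM in the Flox and 7.57 ± 2.97 FPKM in the Ad-GHRKO libraries (log2 change -0.35, adjusted p = 0.524). Mmp11, stromelysin 3, was 6.84 ± 2.52 and 9.95 ± 5.02 FPKM (0.41, adjusted p = 0.617). Mmp27 had a log2 change of -0.35 (adjusted p = 0.557), Mmp15 of -0.16 (0.759), Mmp23 of 0.22 (0.767) and Mmp28 of 0.16 (0.822). The sign of Mmp23 turned without the 3 muscle-rich libraries (-0.031).

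Macrophage markers were read beside Mmp19 and Timp1. The 9 markers summed to 333 to 1120 FPKM in Flox and 537 to 1939 FPKM in Ad-GHRKO, highest in Ad-GHRKO 5. Trem2 and Itgax were the 2 of the 9 that passed, both higher, where 0.774% of all genes passed as higher (adjusted p = 0.00394 and 0.0447, the latter up to 0.119 with single libraries left out). The neutrophil markers summed to 6.80 to 23.4 FPKM in Flox and 3.88 to 15.2 FPKM in Ad-GHRKO, and 0 of 4 tested passed. The part of these cells in the values of Mmp19, Mmp9 and Timp1 was not tested.

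Of the ADAMTS proteases that cut versican and aggrecan, 5 were tested and none passed. Adamts1, Adamts5 and Adamts4 had positive changes, where 55.7% of all genes did. Adamts9 (log2 change -0.01) and Adamts15 (-0.06) lay near 0. Adamts1 (chromosome 16, 85793827 to 85803113, minus strand) held 11.8, 9.04, 15.6, 14.8 and 12.5 FPKM in Flox 1 to 5 and 14.5, 14.6, 18.6, 24.7 and 52.7 FPKM in Ad-GHRKO 1 to 5. Ad-GHRKO 3, 4 and 5 lay above all Flox libraries. The log2 change of Adamts1 was 0.77 (SE 0.31, adjusted p = 0.2503), or 0.46 (0.359) without Ad-GHRKO 5.

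Adamts5, its neighbour on chromosome 16 (85856173 to 85901828, minus strand) and the most abundant ADAMTS, held 14.0, 24.9, 17.9, 30.9 and 16.2 FPKM in Flox 1 to 5. It held 13.1, 49.0, 33.2, 32.4 and 48.4 FPKM in Ad-GHRKO 1 to 5, so that all but Ad-GHRKO 1 exceeded every Flox library. The log2 change was 0.66 (SE 0.34, adjusted p = 0.373). Without Ad-GHRKO 1 it was 0.97 and passed (0.0338, where 9.32% of all genes passed), which none of the other alternatives gave. Adamts4 (chromosome 1, 171250421 to 171260637, plus strand) was low, averaging 0.943 ± 0.458 FPKM (Flox) and 1.65 ± 0.382 FPKM (Ad-GHRKO) (log2 change 0.46, SE 0.17, adjusted p = 0.186). Flox 1, at 1.72 FPKM, was the only Flox library within the Ad-GHRKO range of 1.20 to 2.11 FPKM.

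Of the other ADAMTS genes tested, Adamts2, which trims the N-propeptide of procollagen, averaged 16.6 ± 5.26 FPKM (Flox) and 16.6 ± 3.14 FPKM (Ad-GHRKO), and Adamts14 of the same kind was 2.55 ± 1.09 and 3.14 ± 1.31 FPKM (log2 change 0.20, adjusted p = 0.766). Adamts10, which associates with fibrillin microfibrils, was 9.52 ± 2.42 and 9.50 ± 2.09 FPKM. Adamtsl4, an ADAMTS-like gene whose product also binds fibrillin, was 16.8 ± 5.09 and 18.8 ± 5.16 FPKM (log2 change 0.15, adjusted p = 0.803). The 4 ADAMTS-like genes tested had log2 changes from -0.06 to 0.15.

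The 19 members that were not tested averaged under 1 FPKM in each genotype. Adamts16 was the highest of them, at 0.406, 0.221, 0.126, 0.254 and 0.430 FPKM in Flox 1 to 5 and 0.136, 1.16, 0.876, 0.493 and 1.23 FPKM in Ad-GHRKO 1 to 5, which rest on 16 to 152 reads. All Ad-GHRKO libraries but Ad-GHRKO 1 lay above the Flox range. Mmp17, Adamts6, Adamtsl2 and Mmp25 followed with means over all libraries of 0.255 to 0.472 FPKM. The collagenase Mmp8, a neutrophil product, had 24 reads over the 10 libraries.

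Lists of genes that act with this family were read the same way. Of 14 tested regulators of pericellular proteolysis, mainly the plasminogen system, 3 rose and 11 did not pass, where 0.774% of all genes passed as higher. Thbs1, a matrix glycoprotein that binds MMPs, was among the 3 (log2 change 3.99, adjusted p = 0.0142). Plaur, the urokinase receptor, rose from 1.71 ± 0.791 to 5.61 ± 3.05 FPKM (log2 change 1.23, adjusted p = 0.0469). The Plaur groups did not overlap, but leaving out 1 library ended the Plaur call for 9 of the 10 libraries (largest adjusted p 0.124). With no filter on low values Thbs1, Plaur and Junb each lost their call (0.0561, 0.130 and 0.0514).

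None of 10 tested ADAM and other metzincin proteases passed. Adam8, a sheddase of myeloid cells, averaged 2.34 ± 1.54 FPKM (Flox) and 17.4 ± 16.3 FPKM (Ad-GHRKO) (log2 change 2.16, adjusted p = 0.0565, 0.0197 without Ad-GHRKO 1), and Adam9 had a log2 change of 0.55 (adjusted p = 0.0968, 0.00817 without Ad-GHRKO 1). None of 14 collagen substrates passed (median log2 change 0.25). None of 17 proteoglycan and glycoprotein substrates did (median 0.26). Among them the perlecan gene Hspg2 had a log2 change of 0.82 (adjusted p = 0.0707, 0.0118 without Ad-GHRKO 1). Ltbp2 of the same list went the other way, at -0.86 (limma adjusted p = 0.116). With Ad-GHRKO 1 left out 9.32% of all genes passed. Adam8, Adam9 and Hspg2 passed in none of the 9 fits without another single library (limma adjusted p up to 0.147, 0.223 and 0.176). Of 11 AP-1 and ETS factors 2 rose, Fos and Junb, against 0.774% of all genes. None of the genes in these 5 lists passed as lower.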

How the data were processed

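The authors deposited 1 table of FPKM values, 1 column per library, with no pooling, per the file headers. Polyadenylated RNA was sequenced, per the labels' protocols. No source used here names the aligner, the counter or the strand setting. The submitters' processing notes name GRCm39, but 99.54% of the gene identifiers shared with GENCODE M21, all 47 members included, had exactly its GRCm38 coordinates, which are given. FPKM times exon length gave whole reads within 0.01 for 99.43% to 99.49% of values, and from these came depths and read numbers.

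Genes reaching 1 FPKM in 5 or more libraries entered the test, run with limma 3.58.1 (R 4.3.3, mean-variance trend, two-sided) on log2(FPKM + 1), with Benjamini-Hochberg adjustment over all genes and a threshold of 0.05. Fold changes on this scale understate changes of low genes. The test was tried on simulated counts with the same dispersion for all genes and no muscle-rich libraries. That trial cannot show how the test fares on libraries such as these. Correlations used 100000 permutations (scipy 1.17.1), and tables and figures used Python 3.11.15, pandas 2.3.3 and matplotlib 3.10.9. Members and lists were chosen with earlier results of these data known. The genes named are Ghr, the TIMPs, Mmp2, Mmp14, members past the threshold, the most abundant members of each role, and of each pathway list up to 4 members past the threshold or the 2 with the smallest p. Other members with an unadjusted p under 0.05 or few reads, Adamts9, Adamts15, Mmp12, Trem2 and Itgax were named after their values were seen. Not all genes the rule gives are named. The fits without muscle-rich libraries and with voom were added after seeing the data. Protein sequences were not used here, and the values of 1 gene that counts in a pathway list are not reported here.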

Additional observations from a re-analysis of the deposited data

Results flagged for a closer look

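In each group of 5 libraries, a library was singled out where its gap to the nearest other exceeded 0.71 of the group's range (Dixon's 95% value). For independent, normally distributed values chance gives this in about 1 in 20 groups. Of the 56 groups of the 28 tested members 8 had it. The rule was applied to FPKM without logs, and the genes share the same libraries, so the 8 cannot be set against that rate. The share over all genes was not computed. Ad-GHRKO 5 stood above the rest of its group for Mmp19 (60.5 FPKM, next 23.1) and Adamts1 (52.7, next 24.7). Flox 4 stood above for Mmp19 (15.8, next 11.9), Adamts14 (4.42, next 2.36) and Adamtsl1 (3.15, next 1.64), and Flox 2 for Timp4 (142, next 90.2). The muscle-rich Ad-GHRKO 1 was highest for Mmp15 (8.12, next 5.18) and lowest for Adamtsl3 (0.466, next 1.30).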

How the results depend on the processing

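The number of members past the threshold was 0 with all libraries and 1 (Timp3, higher) with median ratio scaling, quantile normalization, array weights, without the 3 muscle-rich libraries and without the 4 with muscle reads. Leaving out 1 library gave 0 to 2 members higher and 0 lower. The 2 were Timp3 and Adamts5 without Ad-GHRKO 1, where 9.32% of all genes passed. Members with groups that did not overlap numbered 0 to 2 with 1 library left out. The share of all genes with such groups was not computed with a library left out. For all genes the 280 calls became 117 with no filter, 562 with median ratio scaling, 565 with quantile normalization, 787 with the muscle score as covariate, 1695 with array weights, 763 and 628 without the 3 and the 4 libraries, and 104 to 1182 with 1 library left out. Replicate numbers shared by the genotypes do not pair the libraries by label, and same-numbered libraries deviated together in 2 of 5 pairs (r from -0.49 to 0.39), and 1 of the 5 Flox libraries correlated best with the Ad-GHRKO library of its own number. A replicate block gave 85 calls over all genes, 0 among the members and 2 higher in the 5 pathway lists. These lists held 5 higher genes with all libraries, 1 with no filter, 9 with TPM rescaling, 10 with median ratio scaling and 11 with quantile normalization. They held 12 with the muscle score, 14 with array weights and 3 to 14 with 1 library left out. Their lower genes numbered 2 with array weights and 0 to 1 with 1 library left out. Higher genes over all tested were 99 of 12785 with all libraries, 36 of 31285 with no filter and 162 of 15971 with TPM rescaling. They were 243 of 12759 with median ratio scaling, and of 12785 each 224 with quantile normalization and 289 with the muscle score. Array weights gave 1003 higher and 692 lower of 12785. Without Ad-GHRKO 1 these were 775 and 407 of 12683. The log2 change of Mmp14 was -0.04 with array weights, -0.024 without the 3 muscle-rich libraries and -0.11 to 0.19 with 1 library left out, and that of Mmp23 was -0.031 and -0.022 without the 3 and the 4 libraries. In all, 10 of the 28 tested members changed sign in some alternative, each with a log2 change of at most 0.22 in size. The cause of these shifts was not tested. The family sums moved by less than their spread in each alternative run. Depth limits Timp1, Adamts4 and the untested members.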
